A study of Drosophila melanogaster with 90 samples.

Results

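The 42 genes described here lie on chromosome 4 of Drosophila melanogaster and were taken from a list of its signalling, transcription, chromatin and synaptic genes. A gene was kept where its mean level over the 90 ovary libraries was at least 1 CPM (gene counts scaled to a common library size). This left 36 of the 42, out of 109 chromosome 4 genes and 17493 genes in all in the deposited files. All 42 were found on chromosome 4 of the release 6 annotation (BDGP6), between positions 32478 (PlexB) and 1271759 (Cadps). The nearest genes to the limit were zfh2, kept at 1.23 CPM, and ey, left out at 0.558 CPM.

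Chromosome 4 is the smallest Drosophila autosome. Its genes sit among repeats in chromatin that carries heterochromatin proteins, and they are nevertheless transcribed. The protein Pof coats the chromosome's active genes, and egg encodes a histone methyltransferase that acts there. The X-linked gene sov (small ovary) encodes a nuclear zinc-finger protein with known ties to heterochromatin and to transposon silencing in the ovary.

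PolyA RNA from pools of 15 ovaries was sequenced from females 4 to 5 days old, kept at 25 °C, for 30 genotypes with 3 libraries each. The study asked how loss of sov changes ovarian RNA, and the genotypes form a control, a fertile mutant, a sterile mutant and an RNAi set. Control females of 10 genotypes, all labelled fertile, carried w1118 on both X chromosomes or w1118 opposite 1 of the sov chromosomes. These were Df(1)sov (a deficiency, on a w1118-marked X, written Dfsov here), sov[EA42], sov[ML150] (also on a w1118-marked X), sov[2] (on an X with the markers y, cv, v and f), the SUPor-P insertion KG00226 (on a y-marked X) and the GawB insertion NP6070 (on a y w X). KG00226, NP6070 and sov[2] were also present over w1118 in the opposite written order. The 7 genotypes labelled sterile were NP6070 homozygotes (NP6070/NP6070) and each of Dfsov, sovEA42 and sovML150 over either KG00226 or sov2. The 7 mutant genotypes labelled fertile were KG00226/KG00226 and every heterozygous pair among the chromosomes NP6070, KG00226 and sov2, in both written orders (KG00226/NP6070, NP6070/KG00226, KG00226/sov2, sov2/KG00226, NP6070/sov2 and sov2/NP6070). NP6070 is a GawB element and therefore carries GAL4. RNAi females expressed a hairpin against sov (TRiP.HMC04875, at attP40) or against mCherry (VALIUM20, at attP2) under da-Gal4 (ubiquitous), nos-Gal4 (germline, a GAL4::VP16 fusion) or tj-Gal4 (NP1624, somatic gonad). The sov hairpin females were labelled sterile with each driver and the mCherry females fertile. The 2 hairpins sit on different chromosomes, and no label gives the origin of chromosome 4, so stock background and loss of sov cannot be told apart for any gene below.

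Gene counts per library ran from 2110 to 13164806 (median 4346724.5), and 3 libraries under 100000 counts were left out of the fits (sov2/w1118 replicate 1, Dfsov/sov2 replicate 3 and sovML150/KG00226 replicate 2). The RNA of the targeted gene, measured over the whole ovary, was lower in some of the sets labelled for its loss and not in others. In the da-Gal4 set sov RNA lay between 154.7 and 201.9 CPM with the mCherry hairpin and between 122.3 and 137.3 CPM with the sov hairpin, a fall of 0.49 ± 0.12 (SE) on the log2 scale (edgeR, adjusted p = 0.00634). In the nos-Gal4 set the ranges overlapped, 136.6 to 178.3 against 151.8 to 198.9 CPM, with a log2 change of 0.06 ± 0.12 (adjusted p = 0.907). In the tj-Gal4 set sov was higher with the sov hairpin, 214.1 to 241.7 against 153.0 to 167.6 CPM, by 0.50 ± 0.11 (adjusted p = 0.00501), so that the libraries labelled tj-Gal4 sov RNAi go against a lower sov level. Sterile mutants held 78.5 to 334.8 CPM of sov, fertile mutants 111.1 to 242.5 and controls 88.1 to 199.1, and neither class was called against the controls (adjusted p = 0.0723 and 0.618). Among the controls, Dfsov/w1118, with 1 deficiency chromosome, held 88.1 to 104.8 CPM, where the median over all control libraries was 146.5. Among the sterile genotypes sov was called lower in Dfsov/KG00226 (-0.83 ± 0.08) and NP6070/NP6070 (-0.33 ± 0.08) and higher in the 4 genotypes with sovEA42 or sovML150.

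Markers of other tissues differed in the sterile class, but not in every sterile genotype. The summed level of 14 muscle genes was 183 to 625.3 CPM in control libraries, 181 to 513 in fertile mutants and 348 to 18470 in sterile mutants, and all 13 of these genes that were tested rose in the sterile class. Within it NP6070/NP6070 stayed at a mean of 406 CPM, while Dfsov/sov2 reached 13930 and sovML150/sov2 reached 11330. The 6 hemocyte genes summed to 2.55 to 31.4 CPM in controls and 8.36 to 2149 in sterile mutants, with He and eater at 0 in most libraries. The NP6070/NP6070 libraries, at 8.36 to 12.9 CPM, lay inside the control range. The 10 neuron genes summed to 54.8 to 82.1 CPM in controls and 73.7 to 177 in sterile mutants, with Syt1, VGlut and ChAT at 0 in most libraries. The 6 fat body genes, 5 of them at 0 in most libraries, summed to 0 to 6.45 CPM in controls and reached 822 in 1 sterile library. The 5 germline genes, defining markers of the tissue, were present throughout and fell in the sterile class. They summed to 2540 to 3529 CPM in controls and 1167 to 2790 in sterile mutants, and 9 of 10 eggshell genes fell too. NP6070/NP6070, at 2574 to 2790 CPM for germline and 25820 to 32910 for eggshell genes, lay inside the control ranges. The eggshell control range was 25780 to 67150 CPM. The 2 ovarian soma genes, tj and Fas3, summed to 136 to 437 CPM in controls and 172 to 586 in sterile mutants, with medians of 266 and 295. In such whole-organ RNA, fewer cells of a type and less RNA per cell cannot be told apart.

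Per kilobase of exon, the 42 genes covered a wide range in control ovaries. The highest was Rad23 (a ubiquitin receptor in protein turnover and DNA repair) at 138 CPM per kilobase, followed by the translation initiation factor eIF4G1 at 117 and the microRNA silencing protein gw at 86.6. At the other end, 5 genes had control means under 1 CPM and passed the limit only through other groups: Syt7 at 0.984 CPM, zfh2 at 0.976, RhoGAP102A at 0.962, NfI at 0.879 and CG32017 at 0.708. A rise of these 5 is therefore partly built into the choice of genes, and counts of rises below include them. The 6 genes under the limit (onecut, toy, ey, sv, Actbeta and Gat) had medians of 0 to 0.376 CPM over the control libraries. Together the 36 kept genes took 0.362% to 0.479% of the gene counts of a control library, 0.316% to 0.444% in sterile mutants and 0.365% to 0.460% in fertile mutants.

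The sterile mutants were compared with the controls over genotypes, with the libraries of a genotype summed, 7 genotypes against 10. Of the 36 genes 7 rose and 15 fell at an adjusted p under 0.05 (edgeR), where 44.4% of all 8449 features tested were called, 24.6% higher and 19.8% lower. The median log2 change was -0.13 for the 36 genes and 0.00 for all features. In the fertile mutants only 4 of the 36 genes were called, Syt7 and CG32017 up and CG31999 and Asator down, where 3.93% of all features were called, 2.58% higher and 1.35% lower. When NP6070/KG00226 was left out, 2 genes were called there instead of 4. Sterile and fertile mutants differed for 20 of the 36 genes, 6 higher and 14 lower in the sterile class, where 35.8% of all features differed, 21.5% higher and 14.3% lower. These tests share the control genotypes, and the alleles recur within a class, so the genotypes are not fully independent. All these changes are relative to the rest of the RNA: scaled by the spike-ins instead, the median of all features moved by -1.33 in the sterile class and by 0.39 in the fertile class. In the sterile class 30 of the 36 genes were then called lower and 4 higher, where 7102 of the 8449 features were called lower and 497 higher.

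**Figure D1:**
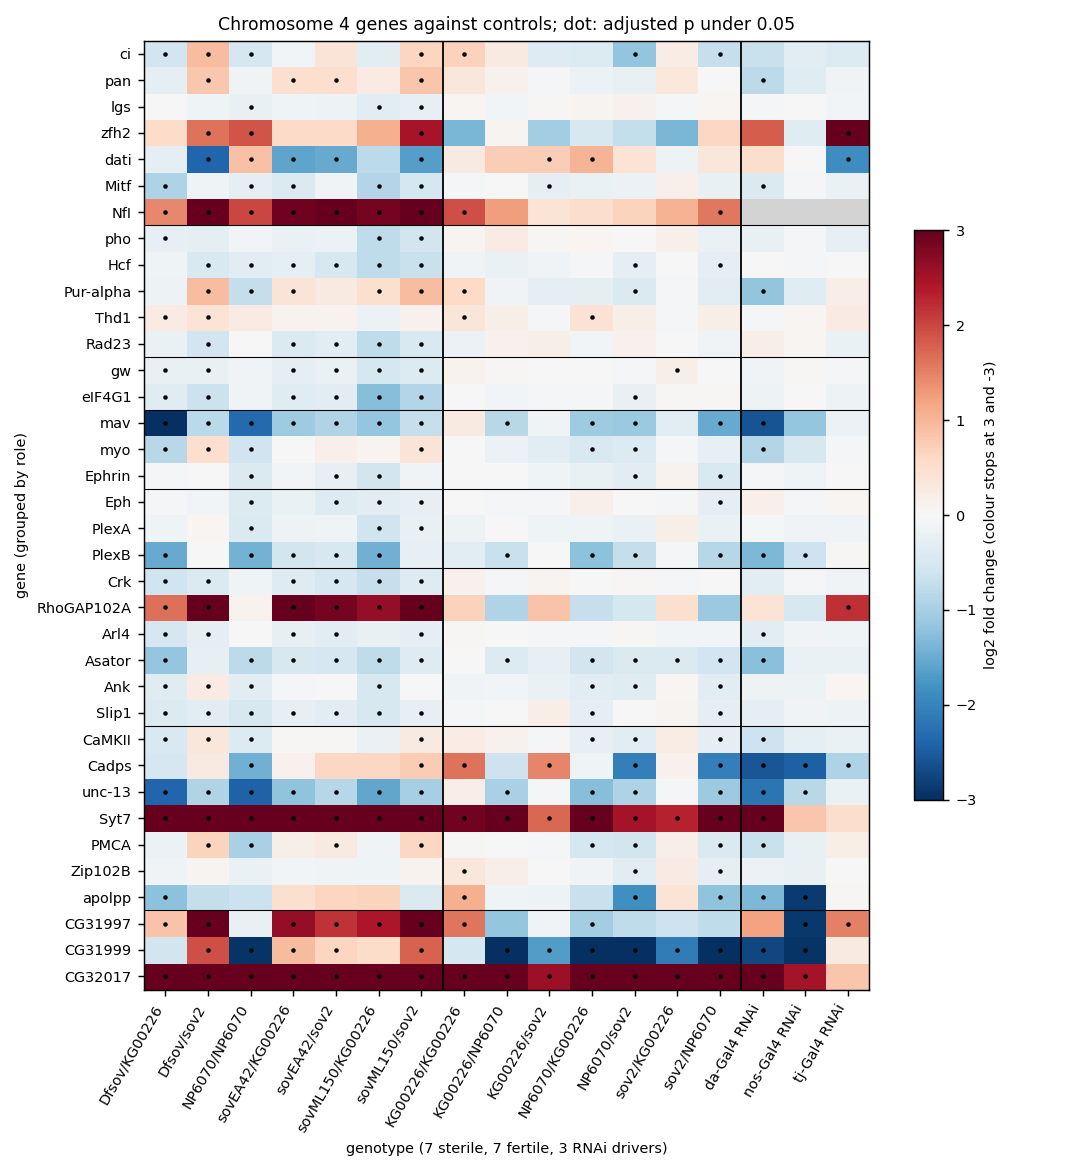
Log2 fold change of the 36 genes (rows, grouped by role) in the 14 mutant genotypes against the mean of 10 control genotypes and in the 3 RNAi sets against mCherry RNAi (columns; the vertical lines part sterile mutants, fertile mutants and RNAi). Red is higher, blue is lower, dots mark an adjusted p under 0.05 and grey marks NfI, which was not tested in the RNAi libraries. Syt7 and CG32017 are dotted red across all 14 mutant genotypes.

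Each of the 14 mutant genotypes was also compared, over libraries, with the mean of the 10 control genotypes. In Dfsov/KG00226, 6 rose and 16 fell, where 46.6% of the 8751 features tested were called, 25.4% higher and 21.2% lower. NP6070/NP6070 had 5 genes higher and 19 lower, against 29.3% of features called, 16.0% up and 13.3% down. For sovEA42/KG00226 the counts were 8 and 13, with 45.6% of all features called (25.2% up, 20.4% down). Falls outnumbered rises in all 3. In sovEA42/sov2, 8 rose and 14 fell, where 47.5% of the 8751 features tested were called, 27.5% higher and 20.0% lower. sovML150/KG00226 had 6 genes higher and 17 lower, against 55.2% of features called, 30.2% up and 24.9% down. Both sets of falls are again larger than the rises. For Dfsov/sov2 the counts were 15 and 10, with 55.8% of all features called (30.4% up, 25.3% down). In sovML150/sov2, 14 rose and 16 fell, where 65.1% of the 8751 features tested were called, 34.7% higher and 30.3% lower. The Dfsov/sov2 count, the 1 sterile genotype with more rises than falls, rests on 2 libraries. It was 15 in all without replicate 1, where the lone library left is assumed to vary like those of the other groups.

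The fertile genotypes without NP6070 had more rises than falls, as did all features in the same comparisons. In KG00226/KG00226, 10 rose and 0 fell, where 10.1% of the 8751 features tested were called, 5.54% higher and 4.59% lower. KG00226/sov2 had 4 genes higher and 2 lower, against 8.14% of features called, 5.10% up and 3.04% down. For sov2/KG00226 the counts were 3 and 2, with 11.5% of all features called (7.47% up, 4.03% down). The totals dropped to 6 in KG00226/KG00226 without replicate 2, and to 3 in KG00226/sov2 and 3 in sov2/KG00226 without replicate 3. The 4 with NP6070 had more falls than rises. In KG00226/NP6070, 2 rose and 5 fell, where 6.89% of the 8751 features tested were called, 4.62% higher and 2.27% lower. NP6070/KG00226 had 4 genes higher and 11 lower, against 28.0% of features called, 15.4% up and 12.6% down. NP6070/KG00226 holds 1 library, replicate 2, that is closer to the controls for mav and unc-13. For NP6070/sov2 the counts were 2 and 17, with 30.7% of all features called (16.4% up, 14.3% down). In sov2/NP6070, 3 rose and 16 fell, where 16.5% of the 8751 features tested were called, 9.34% higher and 7.12% lower. The sov2/NP6070 total was 12 without replicate 3.

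Syt7 (4:278685-306481, minus strand), which encodes a synaptotagmin, a calcium sensor of vesicle release, had the largest rise of the 36 genes in the sterile class. It is 1 of the 5 genes kept only through groups other than the controls, so this rank is partly built into the choice of genes. It was near 0 in controls: 28 of the 29 control libraries ran from 0 to 2.42 CPM with a median of 0.633. The control library KG00226/w1118 replicate 3 stood apart at 9.87 CPM, and its share of transposable element reads was 0.451% where the others had 0.0283% to 0.0710%. In the sterile genotypes Syt7 was 25.6, 18.5 and 22.1 CPM in Dfsov/KG00226, 23.9 and 17.5 in Dfsov/sov2, 28.0, 30.6 and 30.0 in NP6070/NP6070 and 35.0, 34.6 and 24.6 in sovEA42/KG00226. It was 15.2, 11 and 6.02 CPM in sovEA42/sov2, 29.1 and 18.6 in sovML150/KG00226 and 12.2, 11.8 and 13.9 in sovML150/sov2. All sterile genotype means lay above all control means. Fertile genotype means ran from 2.55 CPM in KG00226/sov2 to 13.9 in NP6070/KG00226, and the highest control mean was 3.78, in KG00226/w1118. Its log2 change was 4.61 ± 0.38 in the sterile class (adjusted p = 5.91e-09) and 2.98 ± 0.37 in the fertile class (adjusted p = 1.57e-05), and the difference of 1.63 ± 0.38 between both classes passed the test (adjusted p = 0.00173), though it was -0.03 under spike-in scaling. In KG00226/sov2 the call was lost without replicate 2 or replicate 3.

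CG32017 (4:1137830-1162158, minus strand), known only by its number, rose as widely, and it too was kept only through groups other than the controls. Outside KG00226/w1118 replicate 3, which had 7.05 CPM, the control libraries ran from 0 to 1.74 CPM with a median of 0.319. Sterile genotype means ran from 4.23 CPM in sovML150/sov2 to 10.4 in NP6070/NP6070, and fertile means from 2.92 in KG00226/sov2 to 10.8 in KG00226/NP6070. Its fertile genotype means all lay above every control mean, and the share of all features that do so was not counted. The log2 change was 3.48 ± 0.36 in the sterile class (adjusted p = 1.36e-07) and 3.44 ± 0.36 in the fertile class (adjusted p = 2.24e-06). The classes differed by 0.03 ± 0.36 (adjusted p = 0.954), a difference whose error does not exclude a change of either sign. Syt7 and CG32017 were called higher in all 14 mutant genotypes, and both kept that call in both classes with KG00226/w1118 replicate 3 left out. CG32017 overlaps Kif3C and CG11155 on the other strand, with 0 and 90 shared exon bases, and strand use in the counting is not given. Kif3C rose in the fertile class too (2.83 ± 0.37, edgeR adjusted p = 2.98e-05).

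CG31999 (4:215009-227748, minus strand), also known by its number, was low in genotypes with NP6070, fertile or sterile. It had 7.14 to 21.7 CPM in the 23 control libraries without NP6070, but 2.44 to 5.30 CPM in the 6 control libraries with a single NP6070 chromosome. NP6070/NP6070 had 1.46, 1.45 and 1.48 CPM, and the 4 fertile genotypes with NP6070 had means of 0.699 to 1.39 CPM. The fertile genotypes without NP6070 had means of 2.59 to 7.99 CPM, also low. Of the other sterile genotypes, Dfsov/sov2 had 59.1 and 28.2 CPM and sovML150/sov2 24.3, 48.3 and 40.1, above every control library. Dfsov/KG00226, at 8.07, 5.35 and 9.34 CPM, lay at the low end of the controls and was not called (-0.55 ± 0.29, adjusted p = 0.121). The gene was called lower in 6 of 7 fertile genotypes and in NP6070/NP6070, and higher in 4 sterile genotypes (Dfsov/sov2, sovML150/sov2, sovEA42/KG00226 and sovEA42/sov2). The last pair lost its calls when a single replicate was left out, at log2 changes of 0.25 without replicate 1 in sovEA42/KG00226 and 0.09 without replicate 2 in sovEA42/sov2. For the classes the log2 change from controls was -2.26 ± 0.55 in fertile mutants (adjusted p = 0.0190) and 0.74 ± 0.49 in sterile mutants (adjusted p = 0.227), and the difference, sterile minus fertile, was 2.998 ± 0.591 (adjusted p = 3.97e-04). The fertile call was lost without NP6070/KG00226 (adjusted p = 0.0514). The difference between the classes was 0.77 under spike-in scaling and not called (adjusted p = 0.0936). Dfsov/sov2 and sovML150/sov2 also had the highest muscle marker sums, and the part of muscle RNA in these levels was not tested.

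**Figure D2:**
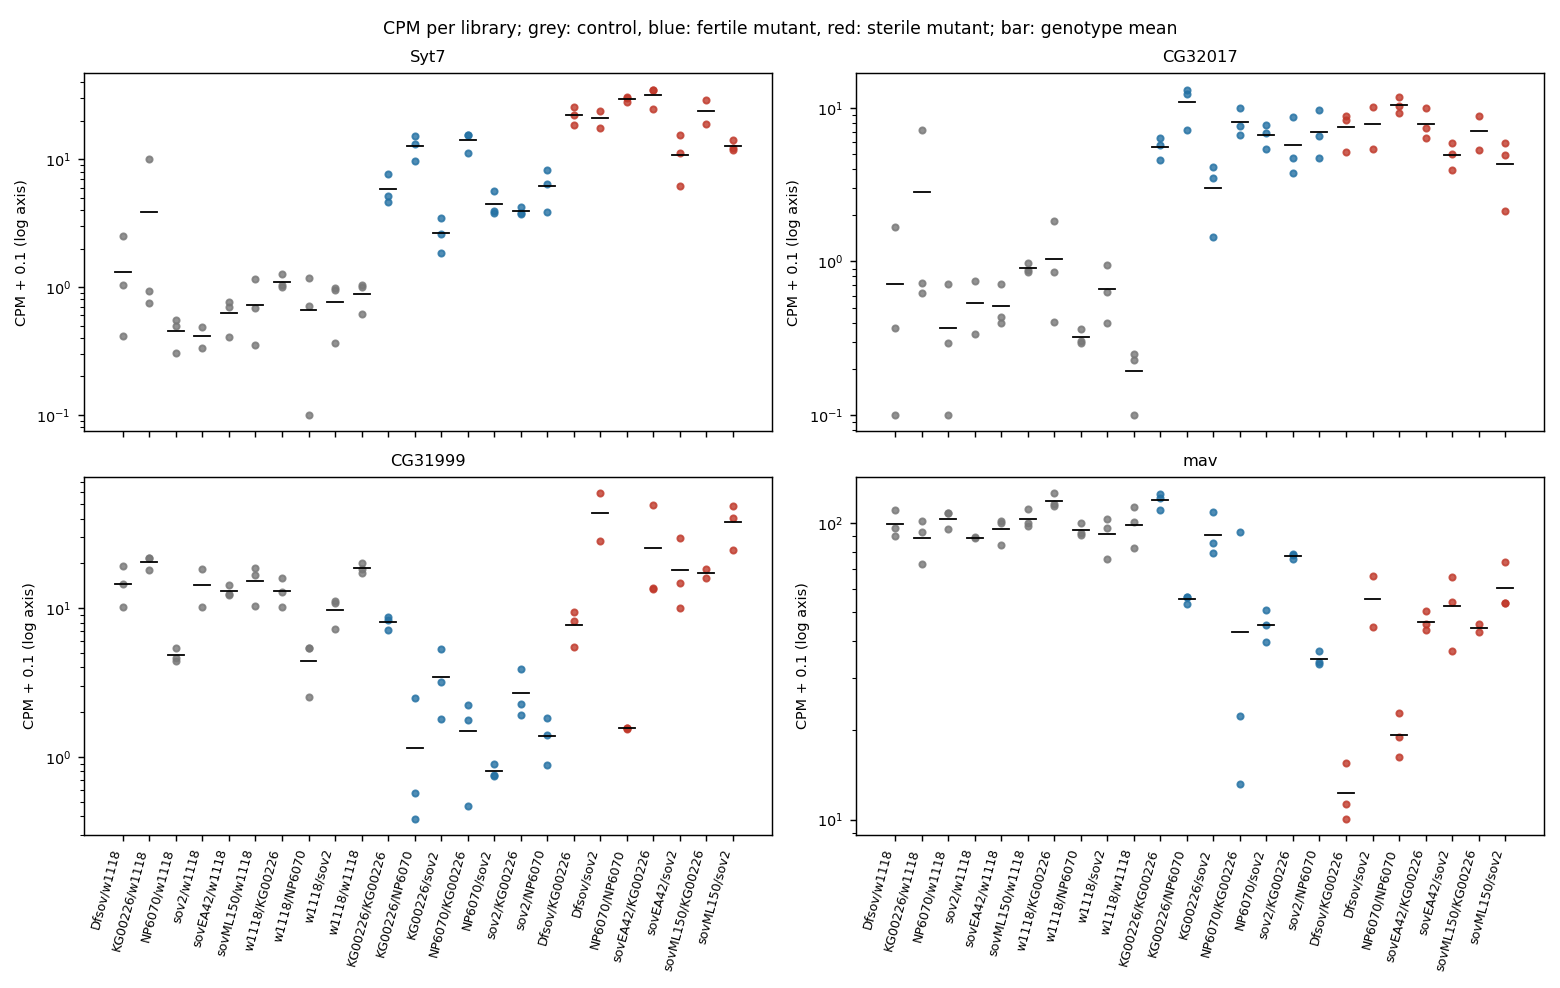
CPM plus 0.1 on a log axis in each library of the 24 mutant and control genotypes for Syt7, CG32017, CG31999 and mav (1 point a library, black bars at the genotype mean; grey controls, blue fertile mutants, red sterile mutants). Syt7 and CG32017 sit higher in blue and red genotypes alike, CG31999 is lowest within each colour where NP6070 is present, and mav is lowest in Dfsov/KG00226 and NP6070/NP6070.

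Among the ligands, mav (4:623219-626031, minus strand), which encodes the TGF-beta family ligand maverick, was the 1 that fell in the sterile class. Control libraries ran from 72.3 to 126 CPM. Dfsov/KG00226 had 15.4, 9.97 and 11.2 CPM and NP6070/NP6070 had 18.8, 16.1 and 22.8. The other 5 sterile genotypes had means of 44.2 to 60.4 CPM, so that no sterile genotype mean reached the lowest control mean of 89.1. The fall was 1.25 ± 0.26 on the log2 scale (adjusted p = 5.25e-04), and mav was called lower in all 7 sterile genotypes, from -0.70 to -3.03. The call in sovML150/sov2 was lost without replicate 3. The 4 fertile genotypes with NP6070 had means of 34.7 to 55.1 CPM, all called lower, and the 3 without it 77.2 to 119, none called. Control libraries with a single NP6070 chromosome overlapped the others, at 91.2 to 107.5 against 72.3 to 125.7 CPM. Within NP6070/KG00226 replicate 2 stood at 93.3 CPM beside 13.1 and 22.2. Without replicate 3 KG00226/NP6070 was no longer called (adjusted p = 0.06135). The fertile class as a whole gave -0.53 ± 0.26 (adjusted p = 0.292). The difference of -0.73 ± 0.28 between sterile and fertile classes (adjusted p = 0.0439) was lost when any of 6 single genotypes was left out (adjusted p of 0.0578 to 0.113): Dfsov/KG00226, NP6070/NP6070, sovML150/KG00226, KG00226/KG00226, KG00226/sov2 or sov2/KG00226. The TGF-beta family ligand myo was not called in the sterile class (adjusted p = 0.982), with Dfsov/KG00226 at -0.83 and Dfsov/sov2 at 0.50, both called, in opposite directions. Ephrin, the ligand of Eph, gave -0.20 ± 0.09 (adjusted p = 0.0781). The activin ligand Actbeta stayed at 0 to 1.87 CPM in the sterile libraries.

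Of the 3 receptors, PlexB and Eph fell in the sterile class. PlexB (4:32478-43778, minus strand), a semaphorin receptor, ran from 20.5 to 52.7 CPM in controls and had means of 12.1 CPM in Dfsov/KG00226, 12.7 in sovML150/KG00226 and 12.7 in NP6070/NP6070. Its log2 change was -0.70 ± 0.21 (adjusted p = 0.0107), but Dfsov/sov2 at 34.8 and 32.7 CPM and sovML150/sov2 at 17.2, 30.4 and 33.2 CPM were not called. Fertile means were 13.4 to 21.5 CPM with NP6070 and 27.4 to 34.5 without it. Eph changed by -0.22 ± 0.07 (adjusted p = 0.0116), and PlexA, the other semaphorin receptor, by -0.19 ± 0.09 (adjusted p = 0.0820).

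unc-13 (4:867824-912331, minus strand), which primes synaptic vesicles for release, fell in all 7 sterile genotypes. It ran from 133 to 256 CPM in controls and had 43.9, 23.6 and 36.1 CPM in Dfsov/KG00226 and 34.3, 24.4 and 40.5 in NP6070/NP6070. All sterile genotype means, at most 99.6 CPM, lay below the lowest control mean of 145.2. The change was -1.37 ± 0.23 (adjusted p = 4.77e-05) in the sterile class and -0.49 ± 0.22 (adjusted p = 0.261) in the fertile class, with a difference of -0.89 ± 0.24 (adjusted p = 0.00669). Fertile means were 70.8 to 95.6 CPM with NP6070, all called lower, and 173.7 to 205.2 without it, none called, whereas controls with and without NP6070 overlapped (132.8 to 184.1 and 140.8 to 255.7 CPM). Antisense transcripts overlap unc-13 (asRNA:CR43425 by 3528 exon bases), and whether strand was used in the counting is not given in the sources used here. Of the other genes of synapse, calcium and transport, the vesicle protein gene Cadps was called lower in NP6070/NP6070, NP6070/sov2 and sov2/NP6070 and higher in sovML150/sov2, KG00226/KG00226 and KG00226/sov2, where the sovML150/sov2 call was lost without replicate 2 or replicate 3. The calcium pump gene PMCA fell by 0.98 ± 0.12 in NP6070/NP6070 (adjusted p = 3.1e-09) and rose by 0.68 ± 0.12 in Dfsov/sov2 (adjusted p = 4.7e-06), and PMCA shares 3107 exon bases with Rnf11 on the other strand. CaMKII, a calcium-dependent kinase, was lower in Dfsov/KG00226 (-0.45 ± 0.10) and higher in Dfsov/sov2 (0.33 ± 0.11), where the lone library left without replicate 1, assumed to vary like the other groups, gave -0.01. The zinc transporter gene Zip102B was called in none of the 7 sterile genotypes, and apolpp, which encodes the lipid carrier apolipophorin, in 1 of them. The transporter gene Gat, under the CPM limit, had a median of 0.235 CPM in control libraries and 1.01 in sterile ones.

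**Figure D3:**
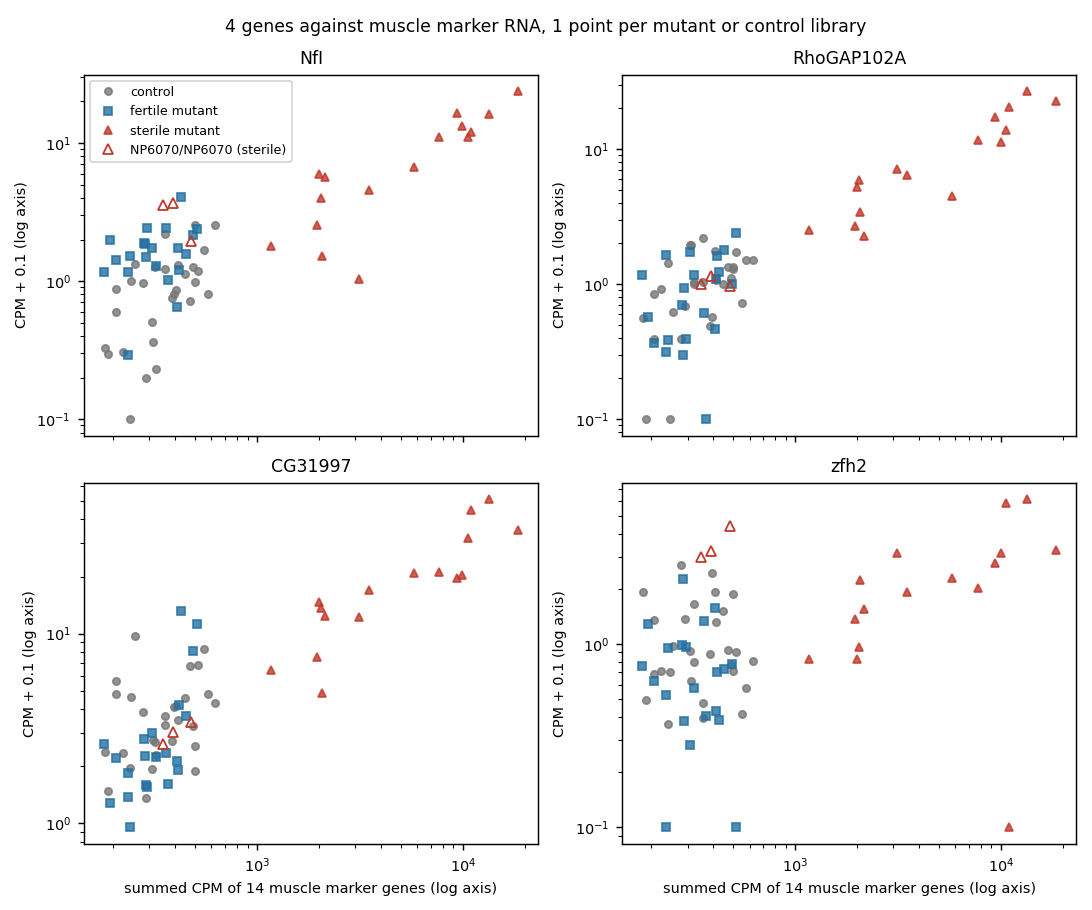
CPM plus 0.1 of NfI, RhoGAP102A, CG31997 and zfh2 against the summed CPM of 14 muscle marker genes, both on log axes, with 1 point for each of the 69 mutant and control libraries. Sterile mutants (red triangles) spread to 18470 CPM of muscle markers, and the 3 NP6070/NP6070 libraries (open triangles) stay at 348 to 480 CPM, inside the control range.

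RhoGAP102A, CG31997, NfI and zfh2 rose in the sterile class, where muscle and hemocyte markers rose as well. RhoGAP102A, NfI and zfh2 were kept only through groups other than the controls, so their rise is partly built into the choice of genes. RhoGAP102A (4:254997-265574, plus strand) ran from 0 to 2.08 CPM in controls. It reached 22.5 and 17.3 CPM in Dfsov/sov2 and 11.1, 26.8 and 13.7 in sovML150/sov2, but 1.04, 0.905 and 0.862 in NP6070/NP6070. It was called in 6 of 7 sterile genotypes and in 0 of 7 fertile ones, with a class change of 3.22 ± 0.45 (adjusted p = 4.62e-06). CG31997 (4:154654-156060, minus strand) was 35.1 and 19.7 CPM in Dfsov/sov2, 20.3, 51.1 and 31.7 in sovML150/sov2 and 2.93, 2.53 and 3.32 in NP6070/NP6070, where controls ran from 1.27 to 9.59. Its class change was 2.26 ± 0.43 (adjusted p = 1.65e-04), or 0.48 under spike-in scaling, which was not called (adjusted p = 0.213). KG00226/KG00226, a fertile genotype, was also called higher at 7.95, 13 and 11.1 CPM. NfI, a nuclear factor I transcription factor, was called in all 7 sterile genotypes, NP6070/NP6070 included at 3.55, 3.44 and 1.85 CPM, and peaked at 23.8 and 16.5 CPM in Dfsov/sov2. Its class change was 3.22 ± 0.45 (adjusted p = 4.07e-06), and the fertile genotypes KG00226/KG00226 and sov2/NP6070 were called higher too. In Dfsov/KG00226 the call was lost without replicate 3 (adjusted p = 0.0742). The zinc-finger homeodomain gene zfh2 changed by 1.39 ± 0.33 (adjusted p = 0.00161) but by -0.04 under spike-in scaling. It was called in Dfsov/sov2, NP6070/NP6070 and sovML150/sov2, and it shares 2325 exon bases with Thd1 on the other strand. The plot against muscle markers gives the paired values, and the part of muscle or hemocyte RNA in these rises was not tested. In NP6070/NP6070 RhoGAP102A gave 0.10 ± 0.48 and CG31997 gave -0.23 ± 0.33, neither called. The 6 control libraries with a single NP6070 chromosome held 1.27 to 2.28 CPM of CG31997, however, and the other 23 held 1.78 to 9.59. The NP6070/NP6070 libraries, at 2.53 to 3.32 CPM, thus lay above the controls with NP6070, and this difference was not tested. NfI gave 2.00 ± 0.37 there and zfh2 1.88 ± 0.37, both called. The muscle sum of this genotype lay inside the control range. It also shares no sov chromosome with the other sterile genotypes, so muscle level and genotype cannot be told apart.

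The remaining pattern transcription factors divided. The zinc-finger gene dati was called lower in 4 sterile genotypes, at 1.89 and 4.78 CPM in Dfsov/sov2 and 2.03, 4.87 and 5.91 in sovML150/sov2 against 4.71 to 33.9 in controls. It was higher in NP6070/NP6070, at 33.9, 30.4 and 25.4 CPM. The class change of -0.72 ± 0.36 was not called (adjusted p = 0.102), while sterile and fertile mutants differed by -1.16 ± 0.38 (adjusted p = 0.0217). The Hedgehog effector ci gave 0.08 ± 0.29 in the sterile class, with Dfsov/sov2 and sovML150/sov2 called higher and Dfsov/KG00226 and NP6070/NP6070 called lower, all 4 calls being lost when some single replicate was left out. Of the Wnt pathway pair, the DNA-binding effector pan rose by 0.42 ± 0.14 (adjusted p = 0.0211), or changed by -1.13 under spike-in scaling, and lost its call without Dfsov/sov2 or sovML150/sov2 (adjusted p of 0.0684 and 0.0742). Its cofactor lgs changed by -0.16 ± 0.05 (adjusted p = 0.00614). Mitf, a regulator of lysosomal genes, changed by -0.42 ± 0.10 (adjusted p = 0.00186). The Pax genes ey, toy and sv and the homeodomain gene onecut stayed low, with maxima over the sterile libraries of 1.66 CPM for ey, 1.93 for toy, 1.01 for sv and 4.46 for onecut.

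In the sterile class both RNA silencing and translation genes fell, as did 3 of 5 chromatin and nucleic acid genes and 4 of 6 signal relay genes, of which RhoGAP102A alone rose. Of all features tested 19.8% were called lower, and of the chromosome 4 genes outside the list 42.1%, so falls are not particular to these roles. eIF4G1, the scaffold of translation initiation, changed by -0.50 ± 0.12 (adjusted p = 0.00130), with genotype means of 316.1 to 707 CPM against 628.1 to 871.8 in controls. gw, needed for microRNA silencing, changed by -0.25 ± 0.05 (adjusted p = 6.36e-04). Of the chromatin and nucleic acid proteins, Hcf (host cell factor, a chromatin cofactor) changed by -0.39 ± 0.07, Rad23 by -0.37 ± 0.08 and the Polycomb-group DNA-binding gene pho by -0.30 ± 0.09. Pur-alpha and the DNA glycosylase gene Thd1 were not called. Of the signal relay genes, the adaptor gene Crk changed by -0.42 ± 0.07, Asator (a tau-tubulin kinase) by -0.61 ± 0.11, Slip1 by -0.35 ± 0.07 and the small GTPase gene Arl4 by -0.25 ± 0.06, all called, while Ank (ankyrin) was not. Slip1 was called in all 7 sterile genotypes, but in 5 of them not when some single replicate was left out. The genotype means of Hcf, Slip1 and Asator in the sterile class all lay below the lowest control mean, as did those of mav and unc-13. Those of Syt7 and CG32017 lay wholly above the control means. The share of all features that separate in this way was not counted. The gene ey, under the CPM limit, also had all its sterile means (lowest 0.792 CPM) above the highest control mean (0.741). The germline markers fell in the same class by a median of 0.50 on the log2 scale, and their part in these changes was not tested. In the fertile class no gene of these groups was called except Asator, at -0.37 ± 0.10 (adjusted p = 0.0452), which turned to 0.01 under spike-in scaling and lost its call without any 1 of 13 genotypes (adjusted p of 0.0561 to 0.127). Of the heterochromatin genes measured beside these, Pof fell in the sterile class (-0.23 ± 0.08, adjusted p = 0.0176), while egg (-0.01 ± 0.06) and the other heterochromatin protein gene listed with them (-0.13 ± 0.08, adjusted p = 0.216) were not called.

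The RNAi sets compared 3 libraries of sov RNAi with 3 of mCherry RNAi for each driver. Of the 35 genes tested (NfI was too low), 2 were higher and 14 lower with da-Gal4, where 21.1% of 7700 features were called, 10.1% higher and 11.0% lower. With nos-Gal4, 1 was higher and 6 lower, where 2.62% of features were called, 1.53% and 1.09%. With tj-Gal4, 3 were higher and 2 lower, where 11.8% were called, 9.31% and 2.53%. The median log2 change of the genes was -0.22, -0.16 and -0.06, against 0.02, 0.00 and -0.01 for all features.

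With the ubiquitous driver, 2 genes rose, Syt7 and CG32017, and the falls were led by CG31999, mav and Cadps. Syt7 was 0.773, 0.977 and 1.08 CPM with the mCherry hairpin and 26.1, 23.4 and 12.1 with the sov hairpin, a log2 change of 4.43 ± 0.37 (adjusted p = 7.1e-08). CG32017 was 2.32, 1.30 and 0 CPM against 15.7, 18.1 and 9.61, a change of 3.55 ± 0.50 (adjusted p = 5.74e-05). mav went from 126, 122 and 113 CPM to 7.92, 9.31 and 48.7, a fall of 2.59 ± 0.39 (adjusted p = 0.0001), with replicate 3 apart from the other two. unc-13 went from 235, 248 and 244 CPM to 37.0, 36.7 and 89.3, by -2.20 ± 0.22 (adjusted p = 6.21e-07). PlexB went from 47.2, 47.2 and 45.0 CPM to 18.5, 15.2 and 21.1, by -1.35 ± 0.13 (adjusted p = 3.67e-07). The falls of CG31999 (-2.74 ± 0.52), Cadps (-2.57 ± 0.42), apolpp (-1.35 ± 0.42), Asator (-1.25 ± 0.19), Pur-alpha (-1.19 ± 0.17) and myo (-0.89 ± 0.15) were also called, as were smaller falls of pan, PMCA, CaMKII, Mitf and Arl4. The call of apolpp was lost without mCherry replicate 2 or 3 or sov RNAi replicate 1 or 2, and that of Arl4 without mCherry replicate 1 or 3 or sov RNAi replicate 2 or 3. For mav, unc-13, PlexB, Syt7 and CG32017 the libraries of both hairpins did not overlap. The share of all features that part in this way, 3 libraries against 3, was not counted. Muscle markers summed to 555 to 752 CPM with the sov hairpin and 443 to 524 with mCherry, and 4 of 13 were called. Germline markers summed to 2526 to 2910 CPM against 3592 to 3769 with mCherry, with 2 of 5 called lower, and the part of either in these changes was not tested.

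In the libraries labelled nos-Gal4 sov RNAi, whose sov level was not called lower, CG32017 rose from 0.316, 0.846 and 1.53 CPM to 4.69, 6.42 and 6.57, by 2.48 ± 0.55 (adjusted p = 0.0149), a call that was lost without mCherry replicate 1, mCherry replicate 2 or sov RNAi replicate 3. Syt7, at 0.948, 1.13 and 1.02 CPM against 1.61, 1.43 and 2.74, was not called (0.83 ± 0.46, adjusted p = 0.504). CG31999 fell from 25.6, 33.9 and 19.8 CPM to 4.82, 1.43 and 3.01, by -2.95 ± 0.51 (adjusted p = 0.00185). apolpp fell from 45.2, 42.3 and 31.9 CPM to 4.29, 2.62 and 10.1, by -2.87 ± 0.46 (adjusted p = 9.51e-04). CG31997 fell from 15.49, 13.54 and 13.13 CPM to 2.14, 2.14 and 1.09, by -2.89 ± 0.37 (adjusted p = 7.14e-05), but its mCherry level with the other 2 drivers was only 1.35 to 4.51 CPM. Cadps (-2.44 ± 0.43), PlexB (-0.62 ± 0.12) and unc-13 (-0.82 ± 0.20, adjusted p = 0.0281) fell too, the last of these with a call that was lost without any 1 of the 6 libraries. mav was 114.7, 103.5 and 122.6 CPM against 52.2, 46.9 and 53.4, groups that do not overlap, but it did not pass the test (-1.16 ± 0.34, adjusted p = 0.0816). Germline markers summed to 2961 to 3040 CPM with the sov hairpin and 3338 to 3800 with mCherry, with 1 of 5 called lower, and muscle markers to 322.7 to 429.2 and 260.3 to 443.8 CPM, with 0 of 13 called by edgeR and 0 at an unadjusted p under 0.05. Their part in these changes was not tested.

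**Figure D4:**
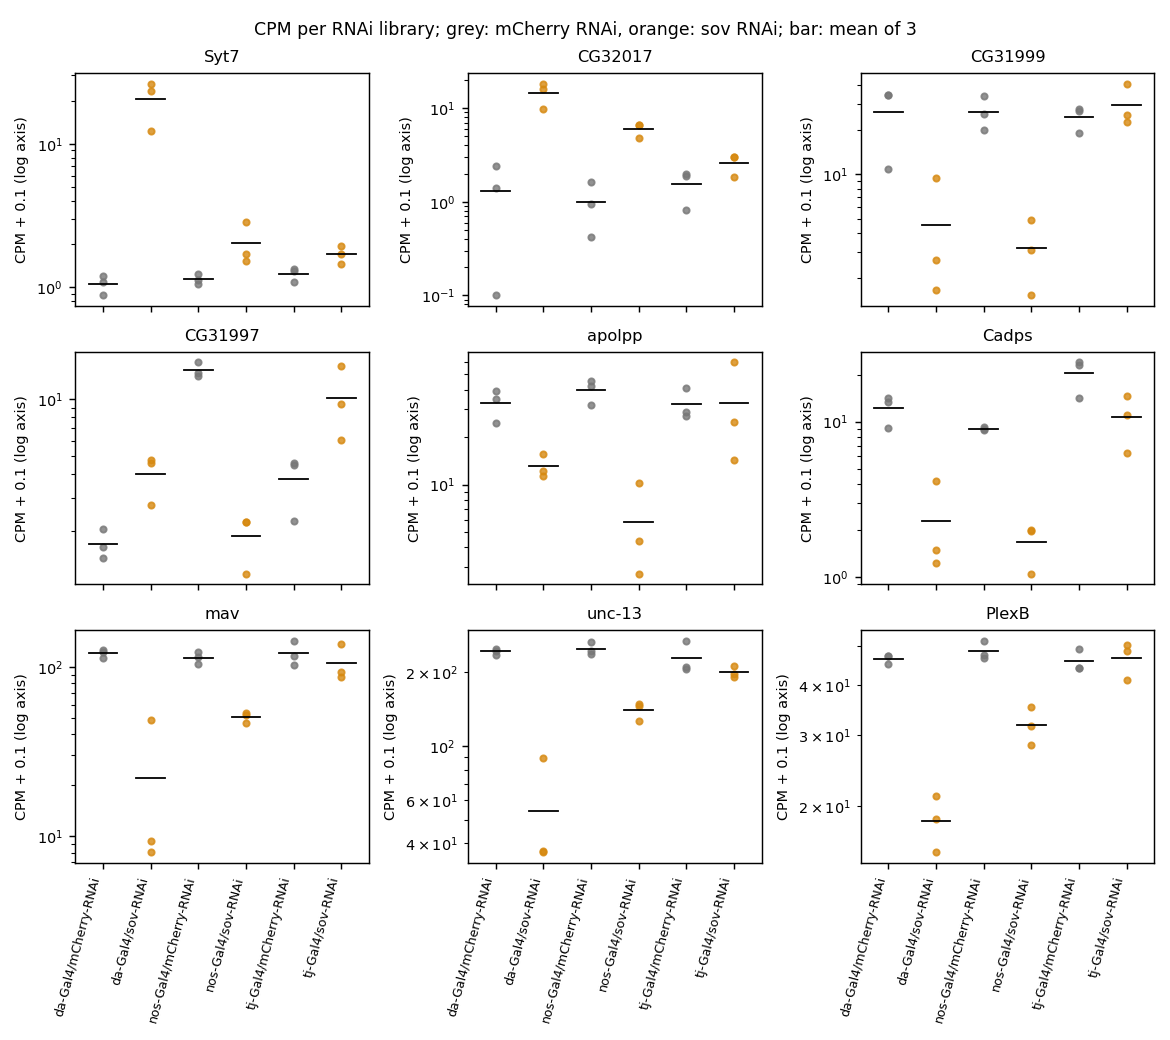
CPM plus 0.1 on a log axis of 9 genes in the 18 RNAi libraries (3 points a group, black bars at the mean; grey mCherry RNAi, orange sov RNAi). Syt7 is highest with da-Gal4 sov RNAi, CG31999, apolpp and Cadps are low with da-Gal4 and nos-Gal4 sov RNAi, and CG31997 is high in the nos-Gal4 mCherry libraries.

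With the somatic driver, in the libraries labelled tj-Gal4 sov RNAi, neither Syt7 (1.35, 1.60 and 1.83 CPM against 1.19, 1.24 and 0.982) nor CG32017 (1.73, 2.88 and 2.93 against 0.713, 1.87 and 1.77) was called. The called rises were zfh2 at 2.31, 2.56 and 2.93 CPM against 0, 0 and 0.589 (3.33 ± 0.75, adjusted p = 0.00431), RhoGAP102A at 3.27, 6.08 and 4.76 against 0.713, 0.933 and 1.38 (2.19 ± 0.58, adjusted p = 0.0144) and CG31997 at 5.96, 14.7 and 9.28 against 4.51, 4.35 and 2.16 (1.51 ± 0.34, adjusted p = 0.00427). dati was lower, at 1.92, 0.960 and 7.93 CPM against 14.2, 16.8 and 10.2 (-1.87 ± 0.55, adjusted p = 0.0284), and so was Cadps (-0.92 ± 0.29, adjusted p = 0.0439). Muscle markers summed to 2572 to 3802 CPM with the sov hairpin and 251 to 389 with mCherry, hemocyte markers to 259 to 452 against 9.95 to 15.3, germline markers to 2782 to 3176 against 3438 to 3578, and their part in these changes was not tested. Libraries held spike-in pool 78A or 78B. With tj-Gal4 every sov RNAi library had 78A, while mCherry replicates 1 and 2 had 78B, so pool and hairpin are partly confounded. Spike-in scaling of this set has the same limit. With the spike-in pool as a covariate 2 genes, zfh2 and CG31997, were called instead of 5. Under spike-in scaling, where the median of all features moved by -1.36, CG31997 (0.22) and RhoGAP102A (0.97) were not called. The count was also 2 without mCherry replicate 1, and 3 without mCherry replicate 2, sov RNAi replicate 1 or sov RNAi replicate 2.

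The differences between hairpins under nos-Gal4 and under tj-Gal4 were compared in the same fit. They differed for 4 of the 35 genes, all lower with nos-Gal4, where 4.87% of features differed, 0.688% higher and 4.18% lower. The nos-Gal4 effect minus the tj-Gal4 effect was -4.39 ± 0.50 for CG31997 (adjusted p = 1.59e-05), -3.22 ± 0.64 for CG31999 (adjusted p = 0.00444), -2.92 ± 0.59 for apolpp (adjusted p = 0.00516) and -0.65 ± 0.16 for PlexB (adjusted p = 0.0214). The sign for PlexB turned to 0.63 under spike-in scaling, where the median of all features moved by 1.27, and its call was lost without any 1 of 5 libraries (adjusted p of 0.0592 to 0.0731). The count was 8 without tj-Gal4 mCherry replicate 3. For CG32017, Syt7, mav and unc-13 the effects of both drivers were not shown to differ.

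Of the 67 chromosome 4 genes outside the list, 38 in the mutants and 34 in the RNAi libraries passed the filter on low counts. In the sterile class 10 of 38 tested rose and 16 fell, with a median of -0.21. The largest rises were of bt (3.76 ± 0.50), itself a giant muscle protein and 1 of the 14 muscle markers, CG1674 (3.49 ± 0.43) and CG33521 (3.22 ± 0.43). The same 3 genes led the rises with tj-Gal4, at 3.39, 3.21 and 3.04. The largest falls in the sterile class were of fuss, a transcriptional corepressor (-0.97 ± 0.35), Zyx, a focal adhesion protein (-0.67 ± 0.20), and CaMKI (-0.61 ± 0.09). fuss also fell with da-Gal4 (-2.00 ± 0.38) and nos-Gal4 (-2.11 ± 0.34). With da-Gal4, 1 of 34 rose, the glutamate receptor gene mGluR (1.61 ± 0.36), and 15 fell, led by asRNA:CR45126 (-2.72 ± 0.30) and CR43361 (-2.14 ± 0.62), which overlaps unc-13 on the other strand. With nos-Gal4 CG11155 (-1.74 ± 0.28) and Zyx (-1.02 ± 0.19) also fell.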

How the data were processed

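The deposited values are read counts per gene, transposable element family and ERCC spike-in, 1 column a library, with no normalisation by the authors. CASAVA 1.8.2, HISAT2 2.0.5 and HTSeq 0.7.2 are named per the submitters' processing notes, and release 6.21 of the genome per the labels. Strand use in the counting is not given in the sources used here. Summary entries that name no gene (12.55% to 63.09% of reads) were left out. Positions came from a BDGP6 annotation, which held 17366 of the 17493 genes.

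Libraries with under 100000 gene counts (3) were left out of the fits, and the kept mutant and control libraries had at least 932267. Counts were tested with edgeR 4.0.16 (quasi-likelihood F test, TMM scaling, filterByExpr, Benjamini-Hochberg adjustment over all features, adjusted p under 0.05) in R 4.3.3. Classes were compared on counts summed per genotype, single genotypes over libraries against the mean of 10 control coefficients, and RNAi groups over 18 libraries in 1 fit. Printed CPM values are TMM-scaled within each fit, and mutant and RNAi levels are not compared. SE is the log2 change divided by the square root of F. Nothing says that replicates are separate cultures, so p-values measure the spread between these samples.

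All 42 genes could be named, with the 3 largest called rises and falls among other chromosome 4 genes. Some genes that overlap a listed one are named besides these. The genes, marker lists and rules were chosen with earlier results of these data known. Alternatives were DESeq2 1.42.0, RLE size factors, no filter, spike-in scaling, a spike-in pool covariate, all libraries kept, a replicate block and leaving out genotypes or replicates. Pools 78A and 78B were uneven over genotypes, with every KG00226/KG00226 library in 78A and every sov2/NP6070 library in 78B. The tests were checked on simulated counts, drawn from 1 mean profile with a single dispersion and no spread between genotypes. Of the genes changed 2-fold, 100% were recovered in the sterile class, 72% in Dfsov/sov2 and 65% with tj-Gal4. A gene not called can therefore have changed, and stock differences were not part of this check.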

Additional observations from a re-analysis of the deposited data

Results flagged for a closer look

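Dixon's test was applied to 108 sets of genotype means, where chance marks about 1 in 20, and it marked 6. In controls, KG00226/w1118 was highest for Syt7 at 3.78 CPM (next 1.22), CG32017 at 2.73 (next 0.932) and CaMKII at 139 (next 122), and w1118/KG00226 was highest for mav at 118 (next 103). The Syt7 and CG32017 means rest on replicate 3, described above. Among fertile mutants KG00226/KG00226 was highest for Pur-alpha at 48.5 CPM (next 30.8) and CG31997 at 10.7 (next 3.15).

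The nos-Gal4 effect differed from the tj-Gal4 effect, by the test of the difference, for CG31997 (-4.39), CG31999 (-3.22), apolpp (-2.92) and PlexB (-0.65).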

How the results depend on the processing

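The number of genes called stayed within 1.5 times the reported one except as follows. Spike-in scaling gave 34 genes in sterile mutants, 31 between sterile and fertile mutants, 31 with tj-Gal4 and 26 for nos-Gal4 minus tj-Gal4, on spike-in counts of 274 to 7372 a library. Of all features it called 7599 and 7605 of 8449 in these mutant comparisons, and 7074 and 6124 of 7700 in the RNAi ones. It turned the sign of zfh2 (-0.0416) and pan (-1.13) in sterile mutants, Asator in fertile mutants (0.0077), Syt7 between sterile and fertile mutants (-0.0296) and PlexB for nos-Gal4 minus tj-Gal4 (0.63). With no filter, nos-Gal4 minus tj-Gal4 gave 10 genes, and with the spike-in pool as covariate tj-Gal4 gave 2. CaMKII in Dfsov/sov2 gave -0.0136 without replicate 1 and 0.606 without replicate 2. Beyond these the cause was not tested.

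With 1 genotype left out the counts ran from 21 to 24 in sterile mutants, 2 to 4 in fertile mutants and 17 to 21 between them. With 1 replicate number left out of all mutant genotypes at once they ran from 15 to 26 in Dfsov/sov2, 6 to 9 in KG00226/KG00226, 3 to 6 in KG00226/sov2, 3 to 5 in sov2/KG00226 and 12 to 15 in sov2/NP6070. Dfsov/sov2 and sovML150/KG00226 then keep 1 library, assumed to vary like the other groups. With 1 library left out they ran from 14 to 17 with da-Gal4, 5 to 6 with nos-Gal4, 2 to 6 with tj-Gal4 and 3 to 8 for nos-Gal4 minus tj-Gal4. Of the named calls, DESeq2 kept 315 and lost 11, RLE size factors kept 316 and lost 10, and leaving out single RNAi libraries or replicate numbers kept 757 and lost 154.

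Replicate numbers are shared by the groups but did not pair them: correlations of same-numbered deviations were 0.0378 to 0.317 for da-Gal4, -0.0781 to 0.229 for nos-Gal4 and -0.22 to 0.0843 for tj-Gal4. With the replicate block 16, 7, 5 and 4 genes were called with da-Gal4, nos-Gal4, tj-Gal4 and for nos-Gal4 minus tj-Gal4, and of 280 named calls only Arl4 in Dfsov/sov2 was lost (adjusted p = 0.0586). Without KG00226/w1118 replicate 3, chosen after seeing the data, 273 named calls were kept and 1 was lost. Genes under 1 CPM in controls rest on few reads.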
